A study of Mus musculus with 18 samples.

Results

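Control retinas were compared at 6 and 4 months of age. The comparison used 6 of the 18 arrays of the series, chosen by their labelled strain and age: 3 retinas of C57BL/6 mice at 6 months (retinas 1, 2 and 3) and 3 retinas of C57BL/6 mice at 4 months (retinas 14, 17 and 24). The series profiled total RNA of retina on Affymetrix expression arrays, in RPE65-/- mice, whose background strain the labels do not give, and in C57BL/6 controls at 2, 4 and 6 months, with 3 arrays for each of the 6 groups. Rpe65 is the retinoid isomerase of the pigment epithelium that regenerates the visual chromophore, and C57BL/6 is a common inbred strain that served as wild type. The labels name no mutation or treatment for the controls. The comparison addresses which transcripts differ between these ages in wild type retina.

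The mouse retina is made mostly of rods, with a minority of cones, and passes its signal through bipolar cells to ganglion cells, with horizontal and amacrine cells shaping it on the way. Müller glia span the whole tissue, and resident microglia watch over it. By the ages studied the retina is mature, and in later life glial reactivity and innate immune genes, including those that interferon induces, are the transcripts best known to climb.

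Each deposited value was a ratio of a probe set's signal on an array to its median over the 18 arrays, so a ratio of 1 is the middle of the series. A gene was measured by its brightest clear probe set, that is, one bright enough for its own median to have been the divisor. This gave 11274 genes. Rod markers were bright on every array (the summed signal of the 14 measured rod genes was 29326 to 35571 in arbitrary array-scaled units), in keeping with the labelled tissue. The array medians before scaling were 9.80 to 14.3 at 4 months and 32.8 to 41.3 at 6 months, and the same step was present in the knockouts, so age and the brightness of the arrays cannot be told apart. All 3 retinas at 6 months were female by Xist and Y-linked genes, whereas 2 of the 3 at 4 months (14 and 17) were male. The design text calls the samples biological replicates, and nothing further says how many animals gave the retinas, so p-values measure the spread between these arrays, which may be technical. Knockouts, given for comparison, were 3 males at 4 months and 2 males and 1 female at 6 months by the same genes.

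At 6 months no gene passed the threshold. limma's moderated test called 0 of 11274 genes (0%) at a Benjamini-Hochberg adjusted p under 0.05, and the smallest adjusted p was 0.0544. Other scalings of the arrays called 12 (quantile), 14 (centred) and 17 (cyclic loess). At an unadjusted p under 0.05 it returned 1399 genes (12.4%), with 452 higher at 6 months (4.01%) and 947 lower (8.4%). Differences above 0 were found for 5003 genes (44.4%), and the median log2 difference was -0.04, with 5% and 95% points of -0.49 and 0.44. The median gene had a standard error of 0.18 and a 95% interval of 0.38 to either side, and for 9927 genes (88.1%) the interval lay within a log2 difference of 1 either way. Counts of higher and lower genes in a gene list are at an unadjusted p under 0.05 throughout, and none of the 34 lists had a gene past the adjusted threshold. In the main fit the shares of all genes to read beside such counts are 4.01% higher and 8.4% lower. Leaving out retina 14, 17 or 24 gave 6.87% and 4.81%, 2.44% and 12.6%, and 5.38% and 8.49%, in turn. Leaving out retina 1, 2 or 3 gave 3.03% and 12.9%, 4.61% and 4.47%, and 2.90% and 7.37%. A sex covariate gave 3.47% and 7.40%. The division into higher and lower genes rested on scaling and on single arrays. After cyclic loess it was 849 higher and 900 lower, after centring arrays on their median 747 and 933, and after quantile normalization 698 and 891. Without retina 14 it was 774 and 542, without retina 17 it was 275 and 1419, without retina 1 it was 342 and 1455, and without retina 2 it was 520 and 504. Retinas of different ages could be as alike as retinas of one age: the median absolute log2 difference was 0.20 between retina 24 (4 months) and retina 1 (6 months), against 0.27 to 0.36 among the 3 at 4 months and 0.22 to 0.30 among the 3 at 6 months. That pair, both female, was the closest between the ages, and the other pairs between ages ran from 0.25 to 0.38.

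Rod genes at 6 months lay close to their levels at 4 months. Of the 14 measured rod genes, 0 were higher and 1 was lower at an unadjusted p under 0.05, and their log2 differences ran from -0.41 to 0.08 with a median of -0.13. The 95% intervals of these genes reached as low as -0.82 and as high as 0.37. The count of lower rod genes was 3 without retina 17 (Gnb1, Cngb1 and Esrrb), beside 12.6% of all genes, and 2 without retina 1, beside 12.9%. It was 0 without retina 3, where the median was -0.05. Gnat1, the rod transducin alpha subunit, had ratios of 1.07, 0.965 and 1.14 at 4 months and 1.04, 1.19 and 1.02 at 6 months. The groups overlapped, and the log2 difference was 0.03 (SE 0.13, 95% interval -0.25 to 0.31). Sag, the rod arrestin, which ends the light response, had 0.910, 0.915 and 1.04 at 4 months and 0.975, 1.08 and 0.958 at 6 months, which again overlapped. Nrl, the transcription factor that commits precursors to the rod fate, had a log2 difference of -0.05 (SE 0.13), and Pde6b, a catalytic subunit of the rod phosphodiesterase, one of -0.14 (SE 0.11). The rod gene with the unadjusted p under 0.05 was Gnb1, the transducin beta subunit, which is also made in many other cells. Its ratios were 0.847, 0.848 and 0.978 at 4 months and 0.770, 0.746 and 0.626 at 6 months. These did not overlap, and the log2 difference of -0.32 (SE 0.12) had an adjusted p of 0.30 with limma. In bulk retina, fewer cells of a type and less RNA per cell cannot be told apart.

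The medians of cone genes and of genes that rods and cones share lay near 0, with wide intervals for some genes. Of 13 cone genes, 0 had an unadjusted p under 0.05, and their median was -0.07 within a range of -0.51 to 0.64. Without retina 14, 17 or 24, 1 cone gene was higher, beside 6.87%, 2.44% and 5.38% of all genes. The short-wavelength opsin Opn1sw had ratios of 2.25, 2.64 and 1.68 at 4 months and 2.92, 1.83 and 2.23 at 6 months. The medium-wavelength opsin Opn1mw had 1.35, 1.26 and 2.35 at 4 months and 1.80, 1.46 and 1.05 at 6 months. Both opsins overlapped between the ages, with log2 differences of 0.09 (SE 0.24) and -0.18 (SE 0.30). Among 24 genes of both photoreceptor types the median was -0.03, with 0 higher and 1 lower at an unadjusted p under 0.05. The lower one was Rp1l1, a microtubule-associated protein of the photoreceptor axoneme, at -0.48 (SE 0.15). The count of lower genes was 4 without retina 17 and 2 without retina 24, beside 12.6% and 8.49% of all genes. In addition, 1 or 2 genes were higher without retina 3, 17 or 24. Crx, the homeobox factor that drives photoreceptor genes, stood at -0.16 (SE 0.14) and Rbp3, the retinoid carrier between photoreceptors and pigment epithelium, at 0.07 (SE 0.15). Prph2, which shapes the rims of outer segment discs, was read by 1 clear probe set whose ratios were 19.5, 16.7 and 0.294 at 4 months and 0.657, 0.429 and 0.963 at 6 months. Retinas 14 and 17 were far above the other 4, retina 24 was the lowest of all, and the log2 difference of -2.82 had a standard error of 1.46.

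The inner retina held a few genes with small differences. Of 10 rod and ON bipolar genes, 3 were lower at an unadjusted p under 0.05, beside 8.4% of all genes, and 0 higher, around a median of 0.03. This count rested on single arrays: it was 0 without retina 14 or retina 2, 1 without retina 3 and 2 without retina 24. With sex as a covariate it was 2, and the median was -0.21. The 3 genes were Prkca, the protein kinase C that marks rod bipolar cells (-0.36, SE 0.14), Car8, a carbonic anhydrase relative (-0.41, SE 0.15), and Sebox, a homeobox factor (-0.34, SE 0.14). The 2 further probe sets of Prkca gave 0.31 and 1.12, so its probe sets disagreed in sign. Of 19 synapse genes, 3 were lower, beside 8.4% of all genes, and 0 higher, around a median of -0.02. Without retina 24 there were 5 lower, beside 8.49% of all genes. Without retina 14, 2 or 3 there were 2 (Rims1 and Cabp4), and without retina 14 there were also 2 higher, beside 6.87%. Cabp4, the calcium-binding protein that tunes the calcium channel of photoreceptor terminals, had ratios of 1.57, 1.15 and 1.22 at 4 months and 1.02, 0.800 and 0.838 at 6 months. Its groups did not overlap, and its log2 difference was -0.56 (SE 0.16), though its further probe set gave 0.12. Rims1, an organiser of the synaptic ribbon's active zone, was at -0.54 (SE 0.16) and Stx3, the syntaxin of ribbon synapses, at -0.33 (SE 0.13). Leaving out arrays kept the sign: the values of Cabp4 ran from -0.67 to -0.43 and those of Rims1 from -0.65 to -0.37 over the 6 fits that each left out 1 array. Amacrine genes (14 measured, 1 higher and 1 lower), ganglion cell genes (13 measured, 1 higher and 0 lower), OFF bipolar genes (5 measured, 1 higher and 0 lower) and horizontal cell genes (4 measured, 1 higher and 0 lower) had medians of 0.14, 0.08, 0.08 and 0.11. Without retina 14 the amacrine count was 4 higher and 0 lower, beside 6.87% and 4.81% of all genes. Thy1, a surface protein of ganglion cells, was the ganglion gene, at 0.42 (SE 0.14), and Slc6a9, the glycine transporter of glycinergic amacrine cells, the higher amacrine one, at 0.35 (SE 0.12).

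**Figure D1:**
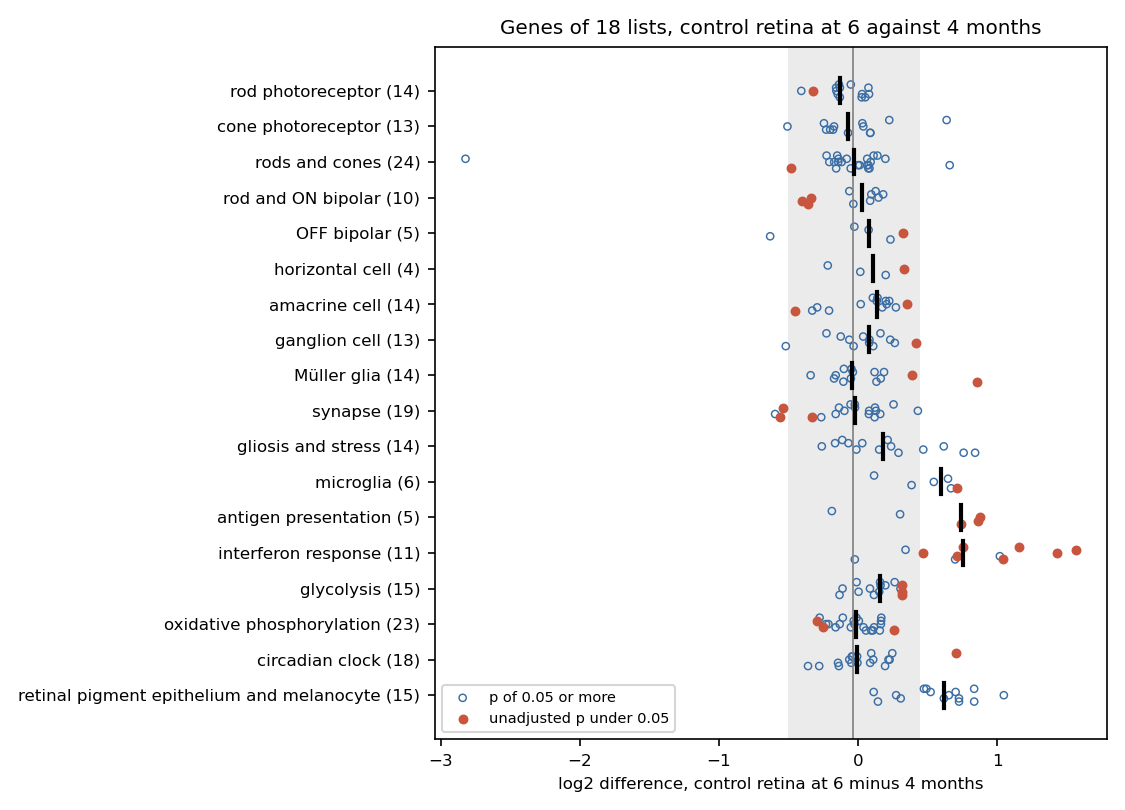
Log2 difference between control retinas at 6 and 4 months (x axis) for each measured gene of 18 gene lists (rows, with the number of genes), where filled points have an unadjusted p under 0.05, black bars are list medians, the grey band is the 5% to 95% range of all 11274 genes and the grey line their median. The photoreceptor and neuron lists centre near 0, while the medians of the microglia, antigen presentation, interferon response and pigment epithelium lists lie at 0.60 to 0.75.

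Among Müller glia genes the apolipoprotein Apoe lay highest. Of 14 genes, 2 were higher, beside 4.01% of all genes, and 0 lower at an unadjusted p under 0.05, and the median was -0.04. Without retina 3, 14 or 17 only Apoe was higher, and with sex as a covariate Apoe was higher and Sox9 lower. Apoe, the main lipid carrier that glia secrete, had ratios of 0.640, 0.580 and 0.849 at 4 months and 1.13, 1.04 and 1.6 at 6 months. All 3 at 6 months lay above all 3 at 4 months, with a log2 difference of 0.86 (SE 0.18) and a limma adjusted p of 0.10. Dkk3, a secreted Dickkopf family protein, was the other, at 0.38 (SE 0.14). Glul, the glutamine synthetase of Müller cells, was at 0.16 (SE 0.11) and Rlbp1, their retinaldehyde-binding protein, at -0.11 (SE 0.13). The gliosis and stress list had 0 of 14 genes with an unadjusted p under 0.05 and a median of 0.18, which was -0.20 without retina 3. Gfap, the intermediate filament of reactive glia, had ratios of 0.482, 0.364 and 0.287 at 4 months and 0.460, 0.397 and 1.58 at 6 months. Retina 3 alone was high, and the log2 difference of 0.84 had a standard error of 0.50. A2m, a protease inhibitor of the acute phase, was also highest in retina 3, with 0.484, 0.481 and 1.05 at 4 months and 0.553, 0.735 and 2.91 at 6 months. Endothelin 2, encoded by Edn2 and made by stressed photoreceptors, had 0.212, 0.120 and 0.259 at 4 months, then 0.0891 and 0.0833 in retinas 1 and 2 at 6 months and 0.864 in retina 3. Without retina 3 it was the only gene of the list with an unadjusted p under 0.05, and was lower. Without retina 24, Mt1 and Mt2 were higher, without retina 1 A2m was, and without retina 2 Gfap was.

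Genes induced by interferon formed the list, of 34, with the most members at an unadjusted p under 0.05 in one direction. The lists were chosen with earlier results of these data known and differ in size, so this rank is no separate support. Of the 11 measured, 7 were higher at an unadjusted p under 0.05 and 0 lower, where 4.01% of all genes were higher, and their median log2 difference was 0.75. None passed the adjusted threshold. Gbp2, an interferon-induced guanylate-binding protein, had ratios of 0.656, 0.293 and 0.577 at 4 months and 0.971, 1.03 and 2.89 at 6 months. Its groups did not overlap, with a log2 difference of 1.57 (SE 0.38, limma adjusted p of 0.14). Ifi27, an interferon-inducible mitochondrial and nuclear-envelope protein, had 0.611, 0.879 and 0.941 at 4 months and 1.43, 1.80 and 3.82 at 6 months. It did not overlap either, at 1.43 (SE 0.33), and its further probe set gave 1.37. Irf7, the transcription factor that amplifies the type I interferon response, had 0.968, 1.12 and 1.2 at 4 months and 1.46, 1.70 and 2.31 at 6 months, a log2 difference of 0.71 (SE 0.17) without overlap. Ifit3, which restrains viral RNA translation with its Ifit partners, had 1.06, 0.733 and 1.01 at 4 months and 1.57, 1.16 and 2.06 at 6 months, at 0.75 (SE 0.20). The antiviral radical SAM enzyme Rsad2 (1.15, SE 0.41), the oligoadenylate synthetase relative Oasl2 (1.04, SE 0.43) and Irf9, the DNA-binding part of the interferon-stimulated factor (0.47, SE 0.19), made up the 7. Irf1, another interferon-responsive transcription factor, was at -0.02 (SE 0.24).

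Retina 3 at 6 months carried the highest value of 9 of these 11 genes among the 6 arrays. Without it, 4 of 11 (Irf7, Ifit3, Ifi27 and Gbp2) were still higher at an unadjusted p under 0.05, beside 2.90% of all genes, and the median was 0.53. With sex as a covariate 5 of 11 were, beside 3.47% of all genes, and the median was 0.77. With 16 added to the signal before taking log2, 7 of 11 were, beside 4.14% of all genes, and the median was 0.52. Retina 17 at 4 months stood lowest for the list, and without it 4 of 11 were, beside 2.44% of all genes, and the median was 0.73. Retina 2 stood lowest at 6 months, and without it 9 of 11 were, beside 4.61% of all genes, and the median was 1.17. Without each of the other 3 arrays 6 or 7 of 11 were, with medians of 0.82 to 0.87.

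Promoters are shown for the genes of this list and of antigen presentation that had an unadjusted p under 0.05 and held an element through which interferon acts. The element is the core of the interferon-stimulated response element, GAAA, then 2 bases of any kind, then GAAA. It was searched on both strands in the 250 bases before the transcription start (RefSeq, GRCm38.p6). It was found in 978 of 32851 promoters (2.98%), which belong to 936 of 27025 genes (3.46%). Of the 14 interferon and antigen presentation genes of these lists with a promoter in that table, 5 held it: Gbp2, Ifit3, Rsad2 and B2m, whose unadjusted p was under 0.05, and Bst2, whose p was not. The lists were made of genes known for these responses. A share above that of all genes was therefore likely from the choice of list and is no result about these arrays. Irf7, Irf9, Oasl2, H2-K1 and H2-D1 had no such letters in this window. The second element searched, TTCNNNGAA, the gamma-activated site, was in 2306 promoters (7.02%), which belong to 2197 genes (8.13%). It was in 3 of the 14 genes (Irf1, Ifit2 and Bst2), none of which had an unadjusted p under 0.05. In the 4 sequences below, 5′ to 3′ on the strand of the gene, capitals mark the core of the interferon-stimulated response element or its reverse complement.
Gbp2, chr3:142620413-142620662, plus strand: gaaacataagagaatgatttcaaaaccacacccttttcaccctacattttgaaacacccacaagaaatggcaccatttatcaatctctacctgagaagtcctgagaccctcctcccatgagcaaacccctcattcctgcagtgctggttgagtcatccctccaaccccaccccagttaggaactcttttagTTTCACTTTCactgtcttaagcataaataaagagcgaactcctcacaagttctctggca
Ifit3, chr19:34583279-34583528, plus strand: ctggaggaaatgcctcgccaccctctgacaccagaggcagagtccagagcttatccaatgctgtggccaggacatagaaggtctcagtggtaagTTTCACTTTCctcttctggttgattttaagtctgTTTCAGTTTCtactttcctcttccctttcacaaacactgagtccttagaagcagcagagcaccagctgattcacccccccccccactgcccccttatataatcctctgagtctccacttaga
Rsad2, chr12:26456453-26456702, minus strand: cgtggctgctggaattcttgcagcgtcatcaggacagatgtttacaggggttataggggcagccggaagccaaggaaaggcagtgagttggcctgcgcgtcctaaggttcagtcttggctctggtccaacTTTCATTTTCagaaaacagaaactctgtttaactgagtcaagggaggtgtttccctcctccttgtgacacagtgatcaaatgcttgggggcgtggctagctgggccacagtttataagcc
B2m, chr2:122147437-122147686, plus strand: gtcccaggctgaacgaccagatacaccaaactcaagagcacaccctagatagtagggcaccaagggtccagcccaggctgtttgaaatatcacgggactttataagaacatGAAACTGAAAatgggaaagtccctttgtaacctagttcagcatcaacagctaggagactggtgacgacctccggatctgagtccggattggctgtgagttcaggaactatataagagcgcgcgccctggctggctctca

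Of 5 antigen presentation genes measured, 3 were higher, beside 4.01% of all genes, and 0 lower at an unadjusted p under 0.05, with a median of 0.74. Of the 5, 4 had a log2 difference above 0, and the lowest was -0.19. H2-D1, a class I histocompatibility heavy chain, had ratios of 0.640, 0.612 and 0.695 at 4 months and 1.05, 1.11 and 1.43 at 6 months. The groups were well separated, with a log2 difference of 0.87 (SE 0.16), a fold of 1.83 and a limma adjusted p of 0.0793. Its 3 further probe sets gave 0.30 to 0.91, and class I genes share sequence, so how far its probes also read H2-K1 is uncertain. H2-K1, the other classical class I chain, had 0.985, 0.920 and 1.01 at 4 months and 1.75, 1.30 and 2.42 at 6 months, at 0.86 (SE 0.20). B2m, the light chain of class I molecules, had 0.989, 0.974 and 1.06 at 4 months and 1.65, 0.964 and 3.03 at 6 months. Retina 2 lay with the younger retinas, and the log2 difference was 0.74 (SE 0.31). Without retina 3 the list's median was 0.32, with H2-K1 and H2-D1 higher at an unadjusted p under 0.05. B2m was also not among the higher genes without retina 1, 14 or 17, or with sex as a covariate.

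Microglia markers were mostly too dim to measure. Of 17 on the arrays, 11 had dim probe sets only, among them Aif1, Cx3cr1, P2ry12 and Tmem119, and of the other 6, 1 was higher and 0 lower at an unadjusted p under 0.05, with a median of 0.60 (0.23 without retina 3). The count of higher genes was 0 without retina 3 or retina 17. It was 2 without retina 14 and 4 without retina 2, beside 6.87% and 4.61% of all genes. Ctss, a lysosomal protease of microglia and other antigen-presenting cells, had 0.857, 0.661 and 0.655 at 4 months and 1.04, 0.871 and 1.80 at 6 months, at 0.71 (SE 0.27). Csf1r, the receptor that sustains microglia, had 0.543, 0.609 and 1 at 4 months and 0.996, 0.882 and 1.52 at 6 months, which overlapped. The summed signal of the 17 genes was 358 to 408 at 4 months and 448 to 856 at 6 months, with the top value in retina 3, and no marker was at the floor of the deposited ratios on these arrays. The interferon list summed to 300 to 410 at 4 months and 438 to 1029 at 6 months, again with retina 3 on top. Connective tissue genes also stood highest in retina 3, where their mean log2 ratio was 1.03 and their summed signal 315, against 132 to 211 on the other 5 arrays. Their median log2 difference was 0.46 over 5 genes (0.34 without retina 3), with 1 higher, Col6a1, a collagen VI chain. The part of microglial or connective tissue content in the immune differences was not tested.

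**Figure D2:**
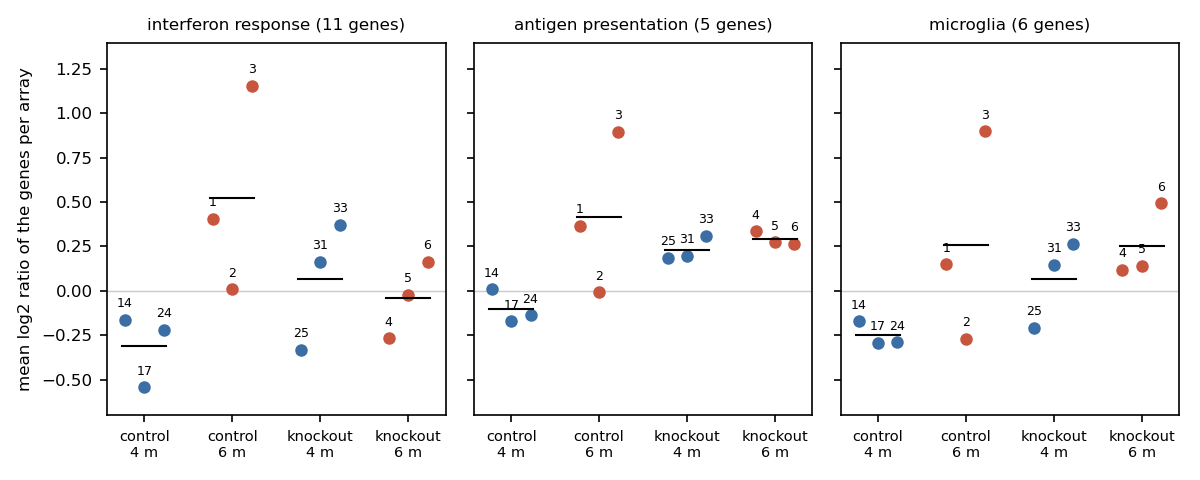
Mean log2 ratio per array (y axis) over the measured genes of the interferon response, antigen presentation and microglia lists, for controls and knockouts at 4 and 6 months (x axis). Each point is 1 array, labelled with its retina number, and black bars are group means over 3 arrays. Control retina 3 at 6 months is the highest point of every panel, and control retinas 1 and 2 at 6 months lie above the 3 younger controls in the interferon panel.

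Energy metabolism gave small values. Of 15 glycolysis genes, 3 were higher, beside 4.01% of all genes, and 0 lower. Their median was 0.16 and their range -0.13 to 0.32. Pkm, the pyruvate kinase of photoreceptors and other tissues, had ratios of 1.01, 0.902 and 1.2 at 4 months and 1.31, 1.34 and 1.2 at 6 months, at 0.32 (SE 0.13). Eno2, the neuronal enolase, and Pfkm, a phosphofructokinase, were each at 0.32 (SE 0.12 and 0.13). The count was 0 of 15 without retina 17, where the median was 0.05, and 5 without retina 14, beside 6.87% of all genes. It was 2 without retina 1 and 1 with sex as a covariate, beside 3.03% and 3.47%. Of 23 oxidative phosphorylation genes, 1 was higher and 2 lower (8.70%, close to the 8.4% of all genes), around a median of -0.01. There were 5 lower without retina 17 or retina 1, beside 12.6% and 12.9% of all genes, and 0 lower without retina 14, 24 or 2. The circadian clock list had 1 of 18 genes higher, Bhlhe41, a transcriptional repressor of the clock (0.70, SE 0.32), and a median of -0.01. Of 12 immediate early genes, 2 were higher, beside 4.01% of all genes, and 0 lower. The 2 were Junb (0.78, SE 0.29) and Ier2 (0.32, SE 0.12). Without retina 3 or retina 17 Junb was not among them, and without retina 14 Ier2 was not. Gsr, the glutathione reductase of the antioxidant list, had 0.508, 0.595 and 0.614 at 4 months and 0.920, 0.785 and 0.780 at 6 months, at 0.53 (SE 0.12), while its further probe set gave -0.39. Malat1, an abundant nuclear noncoding RNA, was at 0.79 (SE 0.23), with 6 further probe sets at 0.03 to 0.43.

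The 10 genes with the smallest unadjusted p in each direction were named by rule, and none of the 20 passed the adjusted threshold. A sex covariate raised the limma adjusted p of the 20 to between 0.25 (Racgap1) and 0.30 (Apoe). Their groups did not overlap in any case. The choice by smallest p on these same arrays makes that likely, so it is no separate support. Of all genes, 4.47% lay wholly above and 7.55% wholly below at 6 months. The higher ones had log2 differences of 0.63 to 0.98. Racgap1, a GTPase-activating protein of cell division, had ratios of 0.799, 0.764 and 0.683 at 4 months and 1.30, 1.31 and 1.65 at 6 months, a 1.89-fold difference with a limma adjusted p of 0.0600. Cltb, a clathrin light chain, had 0.870, 0.716 and 0.961 at 4 months and 1.46, 1.36 and 1.43 at 6 months, at 0.75 (SE 0.13), but its further probe set gave 0.05. Emc9, a subunit of the membrane protein insertion complex of the endoplasmic reticulum, was at 0.83 (SE 0.15), and Rab37, a small GTPase of secretory vesicles, at 0.98 (SE 0.20) with its further probe set at 0.99. The lipid-handling and glycan genes Atp10d, a phospholipid flippase, and Siae, a sialic acid esterase, were each at 0.78 (SE 0.16). Racgap1, Rab37, Atp10d and Siae were dim, with mean array-scaled signals of 23.8, 17.6, 16.3 and 17.2, against a median of 71.2 for genes tested. Adding 16 to the signal before taking log2 gave them smaller differences, of 0.55, 0.51, 0.36 and 0.42. Daam1, a formin that builds actin filaments, was at 0.67 (SE 0.14), with further probe sets at 0.02 and 0.51, and Camkv, a kinase-like protein of neuronal synapses, at 0.63 (SE 0.13). H2-D1 and Apoe completed the 10.

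The lower ones had log2 differences of -1.31 to -0.54. Armc9, a ciliary base protein, had ratios of 1.01, 0.787 and 0.726 at 4 months and 0.460, 0.273 and 0.302 at 6 months. Its log2 difference of -1.31 (SE 0.19) had the smallest adjusted p of all genes, 0.0544 with limma, and its 5 further probe sets gave -0.94 to 0.22. A sex covariate gave Armc9 a difference of -1.19 with a limma adjusted p of 0.29. Dock4, an activator of Rac and Rap GTPases, had 1.59, 1.26 and 1.07 at 4 months and 0.631, 0.569 and 0.649 at 6 months, at -1.07 (SE 0.19), while its 2 further sets gave -0.12 and 0.04. Its mean array-scaled signal was 22.2, and adding 16 to the signal before taking log2 gave a difference of -0.58. Fmr1, the RNA-binding protein lost in fragile X syndrome, had 1.05, 1.06 and 1.04 at 4 months and 0.783, 0.656 and 0.744 at 6 months, at -0.54 (SE 0.11), with further sets at -0.55 to 0.22. Pan3, a subunit of the deadenylase that shortens poly(A) tails, was at -0.81 (SE 0.15), Lsm1, part of the decapping complex, at -0.69 (SE 0.13), Rbm18, a protein with an RNA-binding motif, at -0.55 (SE 0.11) and Cbll1, a ubiquitin ligase tied to the RNA methylation complex, at -0.63 (SE 0.13). Bmt2, a methyltransferase-like regulator of nutrient signalling, was at -0.60 (SE 0.11), Abca13, a large lipid transporter, at -0.73 (SE 0.15) and Zik1, a zinc finger protein, at -0.90 (SE 0.18). For Bmt2, Abca13 and Cbll1 the further probe set had the same sign (-0.67, -0.57 and -0.40), whereas those of Lsm1 (-0.01), Zik1 (0.08) and Rbm18 (-0.05 and 0.01) lay at about 0 and the 3 of Pan3 ran from -0.63 to 0.18. The 283 numbered zinc finger genes with a clear probe set had a median of -0.17, with 47 lower (16.6%, against 8.4% of all genes) and 5 higher at an unadjusted p under 0.05. Their median was similar in knockouts, at -0.14, so it is not particular to controls.

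**Figure D3:**
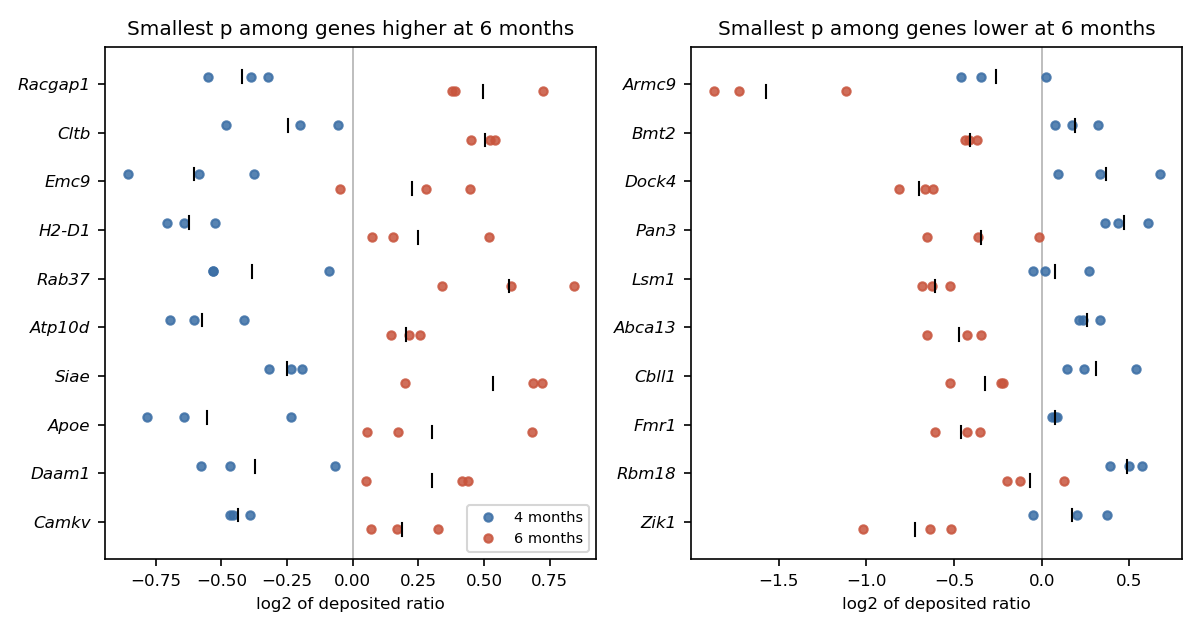
Log2 of the deposited ratio (x axis) of the 20 named genes (rows) on each control array at 4 months (blue) and 6 months (red), with black ticks at the mean of 3 arrays. In every row the 3 points of one age lie on one side of the 3 points of the other, which choosing genes by smallest p makes likely. The left panel holds the genes higher at 6 months and the right panel the lower ones.

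Elovl2 and Elovl4, elongases of very long polyunsaturated fatty acids, were picked after their values were seen. Elovl2 had ratios of 2.23, 2.29 and 1.65 at 4 months and 1.44, 1.11 and 1.07 at 6 months, at -0.76 (SE 0.18, limma adjusted p of 0.13). Elovl4, which photoreceptors need to make the longest chains, had 1.37, 1.01 and 1.06 at 4 months and 0.811, 0.607 and 0.633 at 6 months, at -0.74 (SE 0.16, limma adjusted p of 0.10), and its further probe set gave -0.56. Neither gene overlapped between the ages. In knockouts the same contrast gave -0.46 for Elovl2 and -0.47 for Elovl4. Glb1l3, a relative of beta-galactosidase picked in the same way, had 1.31, 1.96 and 1.6 at 4 months and 4.27, 3.52 and 3.65 at 6 months, at 1.25 (SE 0.30).

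The knockouts at 6 and 4 months share no array with these controls but share the ages and the step in array brightness. In knockouts limma returned 1148 genes at an unadjusted p under 0.05 (10.2%), with 207 higher (1.84%) and 941 lower (8.35%), and 2 genes, both higher, at an adjusted p under 0.05 (0.0177%). Of the 947 genes lower in controls at an unadjusted p under 0.05, 343 were also lower in knockouts (36.2% of the control genes and 36.5% of the 941 knockout genes), and 91.1% had a knockout difference below 0, against 65.5% of all genes. Of the 452 genes higher in controls, 40 were also higher in knockouts (8.85% of the control genes and 19.3% of the 207 knockout genes), and 71.0% had a knockout difference above 0, against 34.5% of all genes. All 10 named lower genes had a knockout difference below 0, from -0.62 to -0.23, and 7 of the 10 named higher genes one above 0. The test of the difference between genotypes, at an unadjusted p under 0.05, returned 379 genes (3.36%), with 233 (2.07%) where controls differed more towards higher values and 146 (1.3%) where they differed more towards lower ones. That split turned to 241 and 260 after quantile normalization, 234 and 246 after cyclic loess, 172 and 226 without retina 1 and 171 and 219 without retina 17, and was 239 and 225 after centring, 480 and 111 without retina 14 and 345 and 123 without retina 2. Among interferon genes the test returned 6 of 11, and the knockout median of that list was -0.14 with 0 genes higher and 0 lower. Among antigen presentation genes it returned 3 of 5, and their knockout median was 0.17 with 0 genes higher and 1 lower. For Gbp2 the control difference of 1.57 stood beside a knockout difference of -0.14, and for Ifi27 1.43 stood beside 0.09. None of the 6 interferon or 3 antigen presentation genes passed the adjusted threshold of that test, which 1 gene did (0.00887%), Pttg1.

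**Figure D4:**
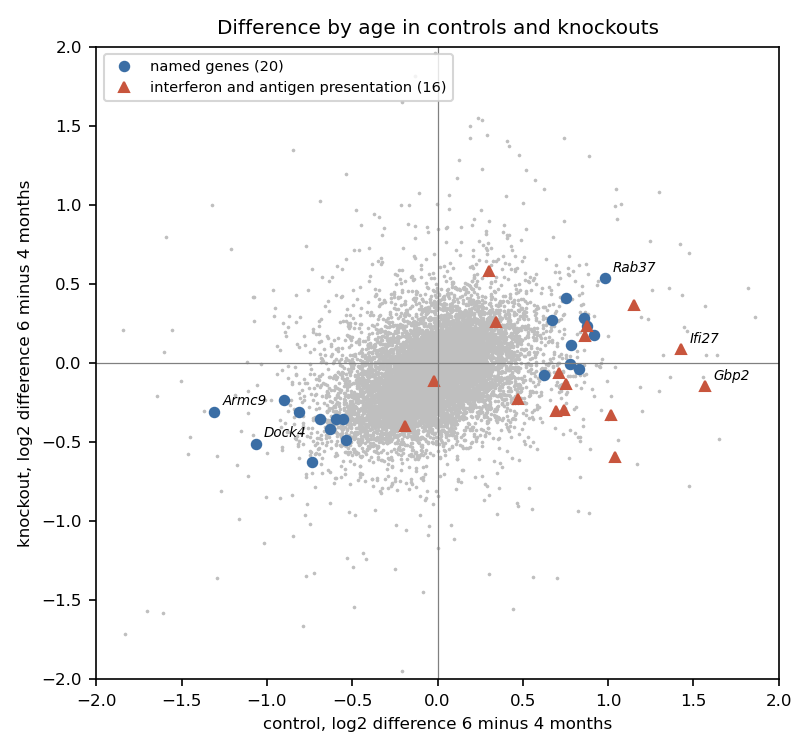
Log2 difference of 6 against 4 months in controls (x axis) and in knockouts (y axis) for the genes tested, with the 20 named genes as blue circles and the 16 interferon and antigen presentation genes as red triangles; 13 genes lie outside the axes. The named lower genes sit below 0 on both axes, while most red triangles lie to the right of 0 on the control axis. On the knockout axis the interferon list has a median of -0.14 and the antigen presentation list one of 0.17.

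Tissue from outside the neural retina differed between single arrays. Pigment epithelium and melanocyte genes had a median of 0.62 over 15 genes, with 0 past an unadjusted p of 0.05. That median was 0.18 without retina 14 and 1.15 without retina 24. Their summed signal was 1966 in retina 14, 4348 in retina 17 and 8299 in retina 24 at 4 months, and 5612 to 7180 at 6 months. With sex as a covariate the median was -0.17. Lens genes had a median of -1.46 over 11 genes, again with 0 past, and a summed signal of 144 in retina 2 against 13272 in retina 1, both at 6 months. Their median ran from -3.28 to 0.69 as 1 array was left out. With the lens list as a covariate, and with the pigment epithelium list, limma called 0 genes and 1 gene (Racgap1) at the adjusted threshold. The part of these tissues in the other differences was otherwise not tested.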

How the data were processed

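RNA of 18 mouse retinas was measured on Affymetrix arrays (45101 probe sets). The authors deposited 1 linear ratio per probe set and array. Per the submitters' processing notes RMA was used for 18 samples and GCOS named for 16, while versions and the order of steps are not given in the sources used here. A probe set whose ratios have a median of 1 was called clear (54.3%), and any other dim. The ratios' steps gave back the signals, in steps of 0.1, before each array was divided by its own factor. Platform annotation named 1 gene for 34945 probe sets, several for 932 and none for 9160, and 0 symbols were updated.

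The log2 ratio of each gene's clear probe set with the highest signal was fitted with limma 3.58.1 (R 4.3.3): 6 group means, 18 arrays, 12 residual degrees of freedom, two-sided moderated tests, Benjamini-Hochberg over 11274 genes, threshold 0.05. Errors with log2 differences are standard errors of that fit. The fit was tested on simulated data. Named genes were to be the 15 largest differences in each direction among genes past the threshold, also with log2(signal + 16), whose groups did not overlap. Since none passed, the 10 with the smallest unadjusted p were taken in each direction, leaving out gene models without a symbol. The members and the 34 gene lists were chosen with earlier results of these data known. Alternatives changed scale, normalization, probe sets, arrays, prior, weights, fold minimum, adjustment and covariates (sex, lens, pigment epithelium). Sex came from Xist and Y-linked genes. The number of arrays limits the precision. Figures used matplotlib 3.10.9 in Python 3.11.15.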

Additional observations from a re-analysis of the deposited data

Results flagged for a closer look

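Pttg1, which encodes securin, the inhibitor of sister chromatid separation, stands out because its difference between 6 and 4 months was not the same in the genotypes. In controls the ratios were 1.4, 1.01 and 1.34 at 4 months and 1.66, 1.42 and 1.28 at 6 months, which overlapped, with a log2 difference of 0.22 (SE 0.33). In knockouts they were 0.0146, 0.0186 and 0.0507 at 4 months and 1.06, 0.680 and 1.21 at 6 months. The 2 lowest lie close to the floor of the deposited ratios, 0.01. The control difference minus the knockout difference was -5.09 on the log2 scale, with a limma adjusted p of 0.000127. With a trended and robust prior, and with probe sets open to cross-hybridisation left out, no gene passed this test. The 2 further clear probe sets of Pttg1 gave control differences of -0.23 and 0.06. These do not bear on the knockout values, and the knockout differences of those sets are not given here. With the mean of all clear probe sets the difference between genotypes was -3.63.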

How the results depend on the processing

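No paired analysis was possible because the controls at 6 months (retinas 1, 2 and 3) and at 4 months (retinas 14, 17 and 24) share no number. For control 6 against 4 months the count at an adjusted p under 0.05, which was 0, became 4 with log2(signal + 16), 22 among the 60% of genes with the highest signal, 12 after quantile normalization, 14 after centring, 17 after cyclic loess, 3 with array weights, 1 with the pigment epithelium covariate and 14 with only the female array at 4 months, and 0 to 24 when 1 array was left out. It was 24 without retina 1, 6 without retina 24 and 0 without each of the other 4. The count stayed 0 with sex or the lens list as a covariate, and with only the 6 arrays compared or only the 9 control arrays. The count at an unadjusted p under 0.05, 1399, became 781 with only the 6 arrays compared and 25 with a 1.5-fold minimum, and was 1024 to 1797 when 1 array was left out. For the difference between genotypes the adjusted count of 1 became 2 after quantile normalization and with the mean of all clear probe sets, 3 after centring and cyclic loess, 0 without cross-hybridising probe sets and with the trended and robust prior, 8 with the lone female array, and 1 to 3 when 1 control array was left out. Its unadjusted count of 379 became 720 with dim probe sets included, 165 among the brightest 60% of genes, 672 with array weights and 19 with a 1.5-fold minimum, and 368 to 591 when 1 array was left out. The cause was not tested. The 20 named genes kept their sign in all 489 pairs of gene and alternative and passed the adjusted threshold in 48 of them, 15 of the genes at least once. They were chosen by p on these same arrays, so a kept sign was likely from the start and is no separate support. Armc9 passed most often, in 8 alternatives. The fits with only the female array at 4 months, with sex together with log2(signal + 16), and those that left out an array from the difference between genotypes were chosen after seeing the data. The lone array is assumed to vary like the other groups.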
